A study of Mus musculus with 15 samples.

Results

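The genes described here were the fibroblast growth factor (FGF) ligands Fgf3, Fgf4, Fgf8, Fgf15 and Fgf17, the receptors Fgfr1, Fgfr2, Fgfr3 and Fgfr4, and the co-receptor Klb. They were taken by gene symbol from the gene counts of all 15 libraries, and made up 10 of the 23412 genes listed. PolyA RNA was sequenced from male mouse embryonic stem cells (ESCs) of the line v6.5, grown on gelatin-coated dishes. STAG1 and STAG2 are alternative subunits of cohesin, the ring-shaped complex that organizes chromosomes. The 5 conditions, with 3 replicates each, were wild-type cells given the transfection control siGLO (WT siGLO), wild-type cells given an siRNA against Stag1 (WT siStag1), Stag1 knockout cells given siGLO (Stag1-/-), Stag2 knockout cells given siGLO (Stag2-/-), and Stag2 knockout cells given the siRNA against Stag1 (Stag2-/- siStag1). Every well received 50 nM of siGLO or siStag1 and was harvested after 48 h, so no condition was untransfected. Each knockout was 1 clonal line made with CRISPR. The replicates of wild-type and single knockout cells are described as biological, without detail on how their cultures were kept apart, and the p-values measure the spread between samples of 1 clone and not between clones. All 4 comparisons with WT siGLO share the same 3 control libraries.

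FGF ligands are secreted proteins that bind receptor tyrosine kinases at the cell surface together with heparan sulfate or a Klotho co-receptor, and the activated receptors signal through RAS and the kinases MEK and ERK. In ESCs, FGF4 is the ligand that the pluripotent cells themselves secrete, and ERK activity downstream of it prepares cells to leave the naive state. In the early embryo the same ligand supports formation of the primitive endoderm, the extraembryonic lineage that lines the blastocyst cavity.

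The libraries held 14982560 to 19070126 counts on genes, and 14508 genes, all 10 members among them, had enough counts to be tested. Values below are normalized counts, the counts of a gene scaled to a common library size with the trimmed mean of M-values. Changes are log2 fold changes ± SE from edgeR's quasi-likelihood test. The SE was derived as the absolute log2 fold change divided by the square root of the test's F statistic. A gene was called at a Benjamini-Hochberg adjusted p under 0.1. Stag2 stood at 663 to 739 normalized counts in Stag2-/- cells and at 2329 to 2334 in WT siGLO. Stag1 stood at 353 to 517 in WT siStag1 and at 629 to 781 in Stag2-/- siStag1, against 2012 to 2288 in WT siGLO. In Stag1-/- cells the Stag1 count was 1826 to 2368, overlapping the control libraries, so the count of this transcript does not check that label. The clone is described as carrying an in-frame deletion, with transcript kept and no protein detected. Pluripotency markers were present in every library, with 8 markers summing to between 28472 and 64299 normalized counts. Replicates of a condition differed by more than sampling noise in every pair (chi-square per degree of freedom 4.70 to 26.8).

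The members were chosen with earlier results of these data known, so shares of all genes are given for scale and not as a test. Of the 10 members, 7 were called in Stag1-/- cells, where 20% of all tested genes were called. The 2 that rose compare with 10.1% of all genes and the 5 that fell with 9.93%. In Stag2-/- cells 7 members were called, against 28.3% of all genes, 2 of them higher (13.9% of all genes) and 5 lower (14.4%). In Stag2-/- siStag1 cells all 10 members were called, against 43.9% of all genes, 4 of them higher (22.6% of all genes) and 6 lower (21.3%). No member was called in WT siStag1, where 0.248% of all genes were called by edgeR, and DESeq2 called none of the members either. At an unadjusted p under 0.05, 2 members passed in WT siStag1, Fgf3 and Fgf4, against 6.36% of all genes. The median log2 fold change of the members was -0.14 in Stag1-/-, -0.34 in Stag2-/-, -0.018 in WT siStag1 and -1.08 in Stag2-/- siStag1, while the median over all genes lay between -0.01 and 0.01. The 3 replicates did not overlap those of WT siGLO for 7 members in Stag1-/-, 8 in Stag2-/-, 3 in WT siStag1 and 10 in Stag2-/- siStag1. Over all genes the shares without overlap were 31.7%, 35.7%, 15.5% and 47.3%. Because RNA was taken from whole wells, fewer cells of a type and less RNA per cell cannot be told apart for any of these genes.

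**Figure D1:**
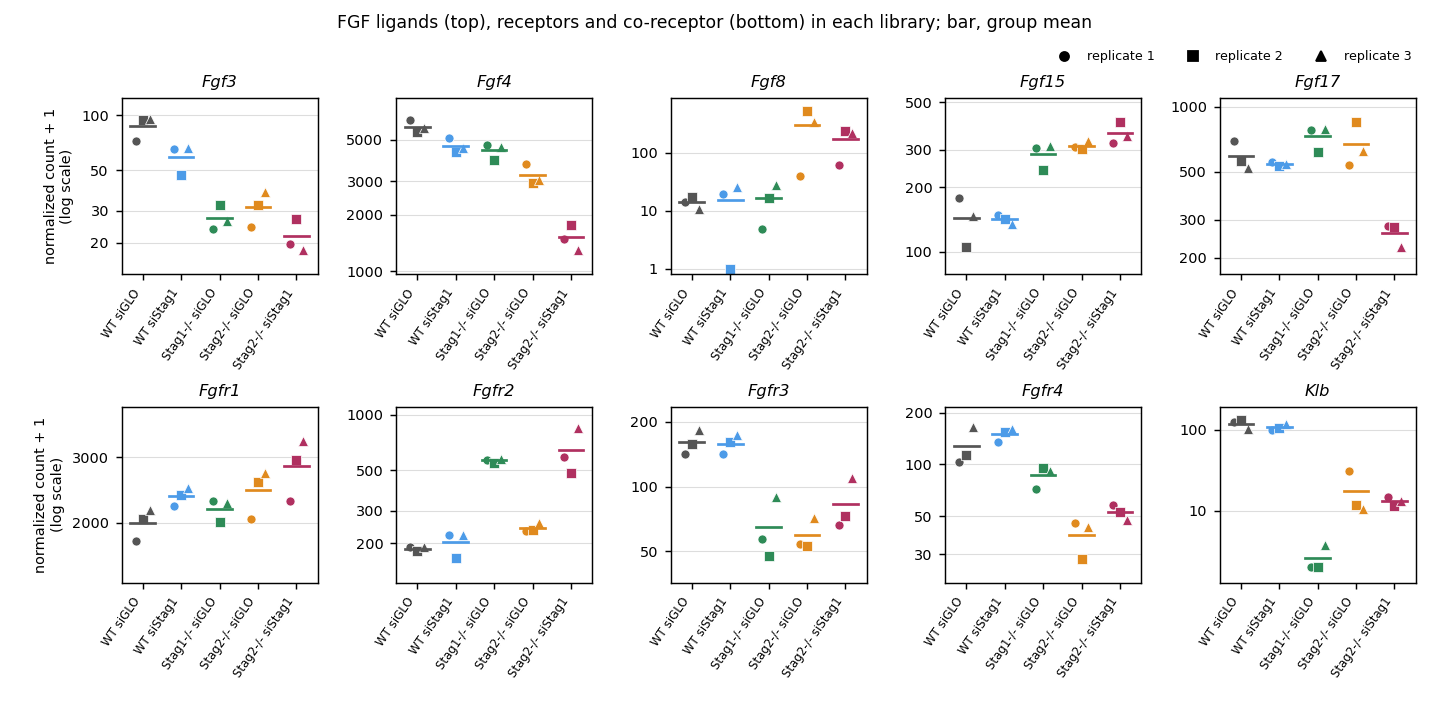
Normalized counts plus 1 (log scale) of the 10 members in each of the 15 libraries, by condition, with a bar at the mean of 3 replicates and a marker shape for each replicate number. Fgf4 is lowest in Stag2-/- siStag1, Fgfr2 is highest in Stag1-/- and Stag2-/- siStag1, and Klb is near 1 count in Stag1-/-.

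**Figure D2:**
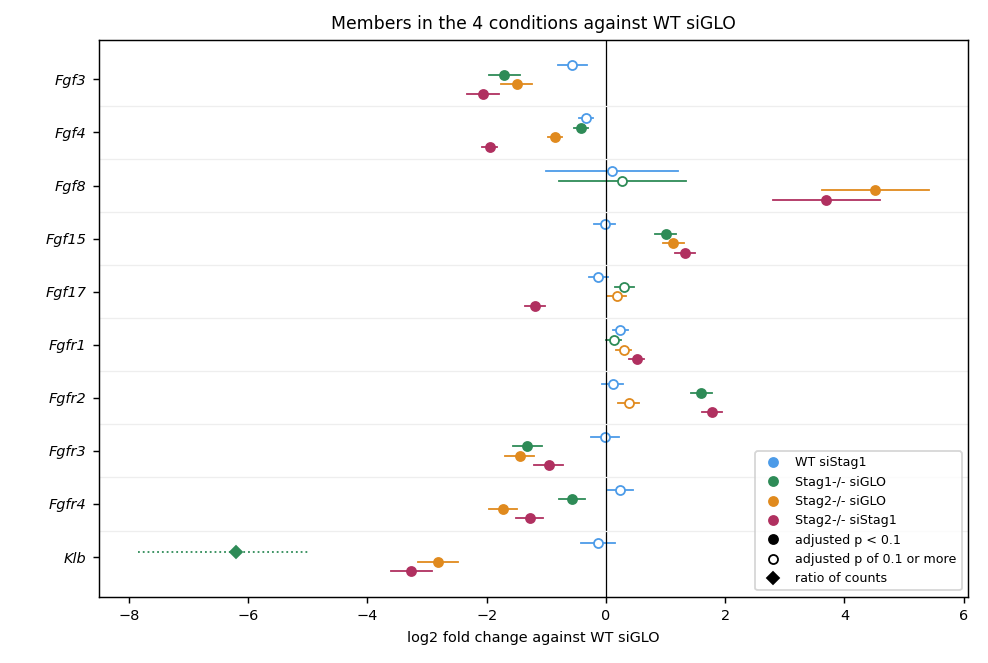
Log2 fold change against WT siGLO of each member in the other 4 conditions, with bars for the SE and filled points for adjusted p under 0.1. Klb in Stag1-/- is drawn as the ratio of counts with its 95% counting interval, and none of the points of WT siStag1 is filled.

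Fgf3, Fgf4, Fgfr3, Fgfr4 and Klb were the members that fell in Stag1-/-, Stag2-/- and Stag2-/- siStag1 cells alike. To show whether their start regions share short sequence elements, the 250 bases upstream of the RefSeq start of each (GRCm38.p6, the mm10 assembly) are printed, 5′ to 3′ on the strand of the gene, with capitals for matches to the motifs searched. The windows were chr7:144838362-144838611 for Fgf3, chr7:144861136-144861385 for Fgf4, chr5:33721474-33721723 for Fgfr3, chr13:55152568-55152817 for Fgfr4 and chr5:65348161-65348410 for Klb, all on the plus strand.
Fgf3 promoter: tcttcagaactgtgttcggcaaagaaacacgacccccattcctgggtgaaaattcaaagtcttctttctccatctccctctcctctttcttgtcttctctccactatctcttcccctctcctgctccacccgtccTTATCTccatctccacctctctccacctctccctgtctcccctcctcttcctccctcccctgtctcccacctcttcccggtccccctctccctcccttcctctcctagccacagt
Fgf4 promoter: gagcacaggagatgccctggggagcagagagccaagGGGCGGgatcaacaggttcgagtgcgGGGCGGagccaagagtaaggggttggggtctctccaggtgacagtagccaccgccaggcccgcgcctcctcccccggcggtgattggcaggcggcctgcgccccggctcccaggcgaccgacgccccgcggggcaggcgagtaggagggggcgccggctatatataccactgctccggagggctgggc
Fgfr3 promoter: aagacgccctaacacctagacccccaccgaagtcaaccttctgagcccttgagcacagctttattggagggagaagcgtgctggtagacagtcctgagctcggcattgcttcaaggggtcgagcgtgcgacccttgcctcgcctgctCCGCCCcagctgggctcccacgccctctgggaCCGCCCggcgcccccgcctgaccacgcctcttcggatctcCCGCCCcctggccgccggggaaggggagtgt
Fgfr4 promoter: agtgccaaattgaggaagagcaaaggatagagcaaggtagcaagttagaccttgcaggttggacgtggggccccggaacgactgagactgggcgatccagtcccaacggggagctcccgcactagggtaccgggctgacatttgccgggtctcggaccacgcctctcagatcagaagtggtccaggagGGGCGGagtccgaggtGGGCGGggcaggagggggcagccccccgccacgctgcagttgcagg
Klb promoter: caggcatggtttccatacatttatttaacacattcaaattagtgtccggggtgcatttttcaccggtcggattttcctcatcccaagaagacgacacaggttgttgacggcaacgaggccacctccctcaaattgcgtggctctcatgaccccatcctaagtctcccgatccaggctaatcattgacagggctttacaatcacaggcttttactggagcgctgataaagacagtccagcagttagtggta
Both strands were searched for the GC box GGGCGG, the TATA box TATAAA, the octamer ATGCAAAT, the TCF/LEF site CTTTGAT, the GATA site AGATAA, the ETS site CCGGAAG and the palindromic E-box CACGTG, and no matches overlapped. The Fgf4 window held 2 GC boxes, the Fgfr3 window 3 and the Fgfr4 window 2, and 32.9% of the 27025 promoter windows of the same length held at least 1. The Fgf3 window held 1 GATA site, on the opposite strand, and 10.3% of all windows held one. The Klb window held none of the 7 motifs in these exact letters. Variants were not searched, such as TATATATA in the Fgf4 window and TGATAA in the Klb window. The other motifs were found in none of the 5 windows and in 13.0% (TATA box), 1.61% (octamer), 3.23% (TCF/LEF), 7.05% (ETS) and 6.05% (E-box) of all windows. GC content was 71.2% for Fgf4, 66.8% for Fgfr3, 64.0% for Fgfr4, 55.2% for Fgf3 and 48.0% for Klb, with a median of 52.0% over all windows. No motif searched was found in all 5 windows, and a match describes letters, not a bound site. The windows depend on the annotation. GENCODE places the start 14019 bases further upstream for Fgf4, 529 for Fgf3, 178 for Fgfr4, 97 for Klb and 50 for Fgfr3. Windows upstream of those starts were not searched. Fgfr2 also had an entry, and Fgf8, Fgf15, Fgf17 and Fgfr1 had none.

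To compare levels between genes, normalized counts were divided by the length of the gene's merged exons in kb. In WT siGLO, Fgf4 was the most abundant member at 1831 ± 147 normalized counts per kb (SD, n = 3), followed by Fgf17 at 350.4 ± 54.3 and Fgfr1 at 202 ± 19.8. The other members were lower by a wide margin, from 46.5 ± 12.0 for Fgf15 to 9.64 ± 2.44 for Fgf8, the lowest. Among neighbours in this order, Fgf15 overlapped Fgf3, Fgf3 overlapped Fgfr4, and Klb overlapped Fgfr3, so those pairs were not separated by their spread. Fgfr1 was the most abundant receptor, with Fgfr4 next at 35.7 ± 9.41 normalized counts per kb, and Fgfr2 the lowest at 18.0 ± 0.523. With the longest transcript as the length, Fgfr1 moved above Fgf17 and Fgfr2 above the other 2 low receptors. In Stag2-/- siStag1 cells the distance between the leading genes was smaller, with Fgf4 at 473 ± 70.9 and Fgfr1 at 289 ± 52.3 normalized counts per kb, and by the longest transcript Fgfr1 was above Fgf4. Fgf8 was the member whose place moved most, from last in WT siGLO to a range overlapping that of Fgfr1 in Stag2-/- cells.

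Fgf4, the ligand that ESCs produce themselves, fell in 3 conditions, most in the cells that lacked STAG2 and were depleted of STAG1. The normalized counts were 6368, 5456 and 5726 in WT siGLO, 4674, 3894 and 4588 in Stag1-/-, and 3727, 2930.0 and 3066 in Stag2-/-. In the cells given siStag1 they were 5067, 4268 and 4516 in wild type and 1482, 1753 and 1302 in Stag2-/-. All 4 conditions lay below the lowest control library, and the 3 libraries of Stag2-/- siStag1 lay below every other library of the series. The log2 fold change against WT siGLO was -0.42 ± 0.12 in Stag1-/- (adjusted p = 0.0277), -0.85 ± 0.12 in Stag2-/- (adjusted p = 0.000155) and -1.95 ± 0.12 in Stag2-/- siStag1 (adjusted p = 1.73e-08). In WT siStag1 it was -0.34 ± 0.12, which missed the threshold (adjusted p = 0.51). Within replicate numbers the 3 differences of WT siStag1 lay between -0.35 and -0.33. The call in Stag1-/- was lost without WT siGLO replicate 1 (adjusted p = 0.109) and without Stag1-/- replicate 2 (adjusted p = 0.112). Within Stag2-/- cells, Fgf4 fell again with siStag1, by a log2 fold change of -1.10 ± 0.12 (adjusted p = 5.7e-05).

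Fgf3, a ligand encoded 22.8 kb upstream of Fgf4 on chromosome 7, was lower by a larger factor than Fgf4 in the single knockouts, at a far lower level. Its normalized counts were 71.1, 93.5 and 93.9 in WT siGLO, 22.6, 31.2 and 25.3 in Stag1-/-, and 23.3, 31.3 and 37.0 in Stag2-/-. They were 64.1, 46.0 and 64.8 in WT siStag1 and 18.7, 26.0 and 17.2 in Stag2-/- siStag1. The knockout libraries did not overlap the controls, and WT siStag1 lay between them. Fgf3 fell, with log2 fold changes of -1.70 ± 0.26 in Stag1-/- (adjusted p = 0.000347), -1.49 ± 0.26 in Stag2-/- (adjusted p = 0.00084) and -2.06 ± 0.27 in Stag2-/- siStag1 (adjusted p = 2.45e-05). In WT siStag1 the value was -0.56 ± 0.24 with an adjusted p of 0.72.

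Fgf15, the mouse counterpart of human FGF19 and a ligand that signals through Klotho-type co-receptors, went in the opposite direction to these neighbours. It starts 35.1 kb downstream of Fgf4. Its libraries held 177, 104 and 146 in WT siGLO, 305, 239 and 309 in Stag1-/-, 308, 302 and 326 in Stag2-/-, 148, 141 and 133 in WT siStag1, and 320.3, 405 and 346 in Stag2-/- siStag1 (normalized counts). Every knockout library lay above every library of the wild-type cells. Fgf15 rose, with log2 fold changes of 1.00 ± 0.17 in Stag1-/- (adjusted p = 0.000879), 1.13 ± 0.17 in Stag2-/- (adjusted p = 0.000271) and 1.32 ± 0.17 in Stag2-/- siStag1 (adjusted p = 2.1e-05). In WT siStag1 it stood at -0.018 (adjusted p = 0.999). Of the 3058 bp of its merged exons, 761 bp overlap an antisense gene of the annotation, and without a stated strand setting reads of the 2 cannot be told apart.

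Fgf3, Fgf4 and Fgf15 lie on the plus strand of chromosome 7 (mm10) at 144838612 to 144843348, 144861386 to 144865245 and 144896532 to 144900953. The other tested genes starting within 200 kb of Fgf4 were Ano1, Oraov1 and Ccnd1. Ccnd1, which encodes cyclin D1, starts 78.4 kb downstream of Fgf4 and rose by a log2 of 0.72 ± 0.15 in Stag2-/- (adjusted p = 0.00276) and 0.76 ± 0.15 in Stag2-/- siStag1 (adjusted p = 0.000757). It was at 0.30 ± 0.15 in Stag1-/- (adjusted p = 0.187). Ano1 and Oraov1 were not called in any of the 4 comparisons with WT siGLO. The locus thus held genes called in both directions, with Fgf3 and Fgf4 lower and Fgf15 and Ccnd1 higher in Stag2-/- cells. The median of the 1165 tested genes on chromosome 7 was 0.04 in Stag1-/-, 0.03 in Stag2-/- and 0.02 in Stag2-/- siStag1.

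**Figure D3:**
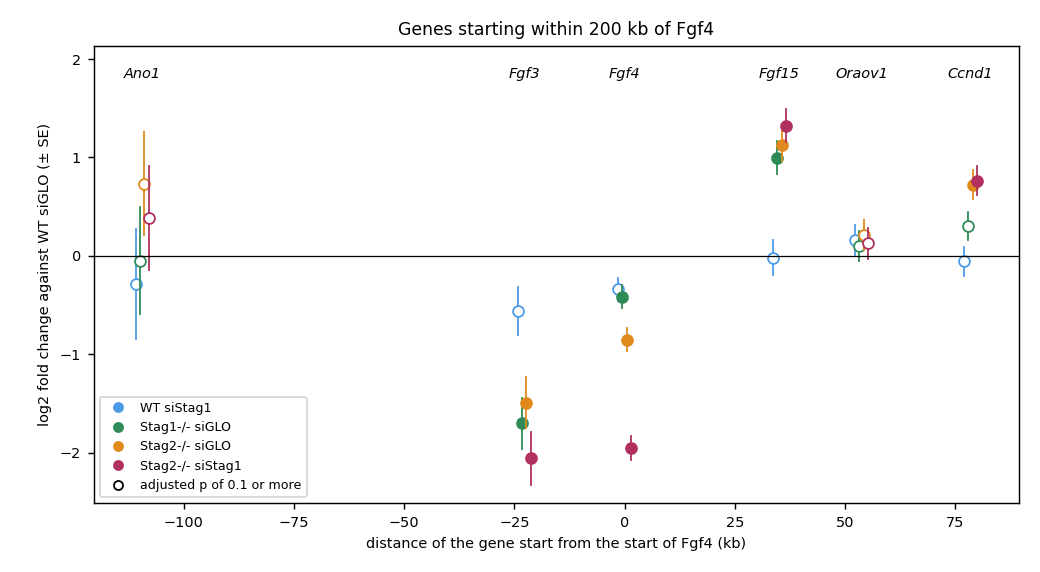
Log2 fold change against WT siGLO (± SE) of the tested genes that start within 200 kb of the start of Fgf4, by distance in kb, in 4 conditions. Open points have an adjusted p of 0.1 or more. Fgf3 and Fgf4 lie below 0 and Fgf15 and Ccnd1 above 0 in Stag2-/- and Stag2-/- siStag1.

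Fgf17, a ligand of the same subfamily as FGF8, fell in Stag2-/- siStag1 cells and was not called against WT siGLO in any other condition. Its normalized counts were 696, 558 and 522 in WT siGLO, 782, 619 and 793 in Stag1-/- and 539, 853 and 622 in Stag2-/-. They were 554, 531 and 539.8 in WT siStag1 and 278, 277 and 222 in Stag2-/- siStag1. The last 3 libraries lay below all 12 others, while the single conditions overlapped the controls. Fgf17 fell, with a log2 fold change of -1.19 ± 0.17 in Stag2-/- siStag1 against WT siGLO (adjusted p = 4.46e-05) and of -1.37 ± 0.17 against Stag2-/- (adjusted p = 0.000142). In the single conditions the values were 0.31 ± 0.16 in Stag1-/- (adjusted p = 0.227), 0.18 ± 0.16 in Stag2-/- (adjusted p = 0.451) and -0.13 in WT siStag1 (adjusted p = 0.999).

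The effect of siStag1 on Fgf17 in Stag2-/- cells differed from its effect in wild-type cells by a log2 of -1.24 ± 0.23 in the interaction test (adjusted p = 0.0462), where 0.159% of all genes were called. This call was lost in a fit to the 4 conditions alone (adjusted p = 0.117) and on leaving out single libraries. Of the 12 tested genes starting within 200 kb of Fgf17 (chromosome 14, 70636203 to 70642268, minus strand), 5 fell and 2 rose in Stag2-/- siStag1 against WT siGLO, where 43.9% of all genes were called. The nearest of them, Epb4.9, which encodes the actin-binding protein dematin, starts 6.22 kb away. Epb4.9 rose by 0.42 ± 0.12 in Stag1-/- (adjusted p = 0.0319) and fell in Stag2-/- siStag1, to a log2 fold change of -1.20 ± 0.13 (adjusted p = 3.03e-06). It stood at -0.14 ± 0.12 in Stag2-/- (adjusted p = 0.466), and its own interaction was -0.95 (adjusted p = 0.0506).

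Fgf8, a ligand of the primitive streak and of several signalling centres of the embryo, was the least abundant member in wild-type cells and rose in Stag2-/- cells, with a wide spread. Fgf8 had normalized counts of 13.1, 16.3 and 9.68 in WT siGLO, 3.94, 15.6 and 27.1 in Stag1-/-, and 18.6, 0 and 24.2 in WT siStag1. They were 38.1, 525 and 339 in Stag2-/- and 59.1, 233 and 217 in Stag2-/- siStag1. In both Stag2-/- conditions replicate 1 was the lowest by a wide margin but still lay above every library of the other conditions. Fgf8 rose by a log2 of 4.52 ± 0.89 in Stag2-/- (adjusted p = 0.00235) and 3.70 ± 0.89 in Stag2-/- siStag1 (adjusted p = 0.00417). Without Stag2-/- replicate 2 the first value was 3.85 (adjusted p = 0.0129). In Stag1-/- it was 0.28 ± 1.07 (adjusted p = 0.905), and the direct comparison of Stag1-/- with Stag2-/- gave -4.24 ± 0.87 (adjusted p = 0.00308). That difference was -3.57 without Stag2-/- replicate 2 and -4.92 without Stag1-/- replicate 3.

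The summed level of 8 markers of the primitive streak and mesoderm was 305, 1057 and 285 in the Stag2-/- replicates 1, 2 and 3, against 240.3 to 352 in WT siGLO. Stag2-/- replicate 2 was highest for both Fgf8 and this sum. In Stag2-/- siStag1 the sum was 213 to 253, with Evx1 and Mesp1 at or under 3 counts. The sum joins markers that went in opposite directions. Of the 6 that could be tested, 3 rose and 1 fell in each of the Stag2-/- conditions, where 28.3% and 43.9% of all genes were called. The transcription factor gene T rose by 3.80 ± 0.62 in Stag2-/- and 2.02 ± 0.64 in Stag2-/- siStag1. The ligand genes Wnt8a (4.78 ± 0.86 and 2.35 ± 0.93) and Wnt3 (2.32 ± 0.49 and 1.57 ± 0.50) also rose in both, while the transcription factor gene Eomes fell (-0.87 ± 0.24 and -1.44 ± 0.25). The part of these markers in the Fgf8 result was not tested. Of the 5 tested genes starting within 200 kb of Fgf8 (chromosome 19, 45736491 to 45742941, minus strand), Fbxw4 rose by 0.63 ± 0.18 in Stag2-/- (adjusted p = 0.0211) and Npm3 by 0.41 ± 0.10 (adjusted p = 0.0113), while Poll fell (-0.25 ± 0.10, adjusted p = 0.0848). In Stag2-/- siStag1, Fbxw4, Npm3 and Mgea5 rose and Kcnip2 fell.

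Fgfr1, the receptor with the highest level in these cells, had a largest change against WT siGLO that was smaller than that of any other member. The normalized counts were 1782, 2045 and 2163 in WT siGLO, 2294, 2004 and 2255 in Stag1-/- and 2052, 2579 and 2722 in Stag2-/-. They were 2220.2, 2372 and 2487 in WT siStag1 and 2294, 2939 and 3314 in Stag2-/- siStag1. Only the conditions with siStag1 lay wholly above the controls. Fgfr1 rose by a log2 of 0.51 ± 0.13 in Stag2-/- siStag1 (adjusted p = 0.00533). It stood at 0.13 ± 0.13 in Stag1-/- (adjusted p = 0.562), 0.30 ± 0.13 in Stag2-/- (adjusted p = 0.116) and 0.24 ± 0.13 in WT siStag1 (adjusted p = 0.861). Blocking on replicate number gave 0.29 in Stag2-/-, which passed the threshold (adjusted p = 0.0231), where 39.4% of all genes were called. Fgfr1 lies on chromosome 8 (25518759 to 25575718, plus strand), whose 760 tested genes had a median of -0.19 in Stag1-/-, -0.21 in Stag2-/-, 0.00 in WT siStag1 and -0.23 in Stag2-/- siStag1. Fgfr1 was above its chromosome's median in all 4 conditions.

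Fgfr2, a receptor of epithelia and of the primitive endoderm, rose in Stag1-/- and in Stag2-/- siStag1 cells. The normalized counts were 189.8, 180.0 and 189 in WT siGLO, 569, 549 and 578 in Stag1-/- and 233, 236 and 258 in Stag2-/-. They were 220.3, 165 and 219.6 in WT siStag1 and 588, 479.5 and 851 in Stag2-/- siStag1. The libraries of Stag1-/- and Stag2-/- siStag1 lay far above all others, those of Stag2-/- lay just above the controls, and WT siStag1 overlapped the controls. Fgfr2 rose by a log2 of 1.60 ± 0.17 in Stag1-/- (adjusted p = 1.6e-05), with differences of 1.58 to 1.61 within replicate numbers, and by 1.78 ± 0.17 in Stag2-/- siStag1 (adjusted p = 1.25e-06). In Stag2-/- the value was 0.38 ± 0.18 (adjusted p = 0.14), and it passed with the replicate number as a block (0.38, adjusted p = 0.0565) and with only the libraries compared (adjusted p = 0.0917). In WT siStag1 it was 0.11 (adjusted p = 0.999).

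Within Stag2-/- cells, Fgfr2 rose with siStag1 by a log2 of 1.40 ± 0.17 (adjusted p = 0.000153), and the interaction with genotype was 1.29 ± 0.25 (adjusted p = 0.0567), a call lost in a fit to the 4 conditions alone (adjusted p = 0.197). The Stag1-/- clone stood above the 48 h knockdown in wild-type cells by a log2 of 1.49 (adjusted p = 3.83e-05). The gene lies on the minus strand of chromosome 7 at 130162451 to 130266808, and no other gene started within 200 kb. Its merged exons share 314 of 10328 bp with Ctbp2 on the same strand.

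Fgfr3, a receptor known as a restraint on bone growth, fell in both knockouts. Fgfr3 had normalized counts of 140.2, 157 and 183 in WT siGLO, 56.1, 46.7 and 88.6 in Stag1-/-, and 52.9, 51.7 and 70.7 in Stag2-/-. They were 141, 160.0 and 172 in WT siStag1 and 65.1, 71.8 and 109 in Stag2-/- siStag1. All 9 knockout libraries lay below all 6 wild-type libraries. The log2 fold change was -1.32 ± 0.25 in Stag1-/- (adjusted p = 0.00176), -1.45 ± 0.25 in Stag2-/- (adjusted p = 0.000811) and -0.96 ± 0.24 in Stag2-/- siStag1 (adjusted p = 0.0054). WT siStag1 stood at -0.018 (adjusted p = 0.999), and siStag1 within Stag2-/- cells at 0.49 (adjusted p = 0.358). Of its 7158 bp of merged exons (chromosome 5, 33721724 to 33737068, plus strand), 998 bp overlap an antisense gene, whose reads cannot be told apart from those of Fgfr3 without a stated strand setting.

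Fgfr4, a receptor that can pair with the co-receptor encoded by Klb, was lowest in Stag2-/- cells. In normalized counts, Fgfr4 was at 103, 112 and 165 in WT siGLO, 70.9, 94.4 and 90.4 in Stag1-/-, and 44.4, 26.9 and 42.2 in Stag2-/-. It was at 134, 153 and 161 in WT siStag1 and 57.2, 52.0 and 46.5 in Stag2-/- siStag1. No knockout library reached the lowest control library. Fgfr4 fell in Stag2-/- (log2 fold change -1.73 ± 0.23, adjusted p = 0.000115) and in Stag2-/- siStag1 (-1.28 ± 0.23, adjusted p = 0.000389). The value in Stag1-/- was -0.57 ± 0.22 with an adjusted p of 0.0970, and the call was lost under 3 of 7 other settings. It was also lost on leaving out each of the libraries other than WT siGLO replicate 1, with an adjusted p of up to 0.387 without WT siGLO replicate 3. Stag1-/- cells stood above Stag2-/- cells by a log2 of 1.17 ± 0.24 (adjusted p = 0.00297). WT siStag1 was at 0.24 (adjusted p = 0.999). The gene lies on the plus strand of chromosome 13 at 55152818 to 55168759. None of the 7 tested genes starting within 200 kb was called in either single knockout, where 20% and 28.3% of all genes were. Only Hk3 was called in Stag2-/- siStag1, where it rose and 43.9% of all genes were called.

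Klb encodes beta-Klotho, the co-receptor through which FGF15 and FGF21 reach their receptors, and showed the largest decrease among the members in the 3 knockout conditions. The normalized counts were 122, 130.1 and 101 in WT siGLO and 99.1, 104 and 118 in WT siStag1. Stag1-/- cells had raw counts of 1, 1 and 3 in the 3 libraries, at or under the 3 counts taken as the floor. In Stag2-/- the normalized counts were 29.6, 10.8 and 9.50, and in Stag2-/- siStag1 13.8, 10.4 and 12.1. The conditions thus fell into 3 levels without overlap, wild type, Stag2-/- with or without siStag1, and Stag1-/-.

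Summed over replicates, Klb had 5 counts in Stag1-/- against 363 in WT siGLO, a ratio 74.1-fold lower at equal depth, with a 95% interval of 31.5 to 230 from counting error only (adjusted p = 3.86e-07). In Stag2-/- the sum was 47 counts, 7.06-fold lower (interval 5.20 to 9.78), and the log2 fold change was -2.81 ± 0.33 (adjusted p = 3.4e-05). In Stag2-/- siStag1 it was 36 counts, 9.69-fold lower (interval 6.87 to 14.1), with a log2 fold change of -3.27 ± 0.34 (adjusted p = 2.87e-06). Without Stag2-/- replicate 1, which had the most Klb of its condition, the Stag2-/- value was -3.52 (adjusted p = 1.18e-06). The direct comparison of the knockouts put Stag1-/- 10.5-fold below Stag2-/- (interval 4.19 to 33.8, adjusted p = 0.000677). The fitted log2 difference between the knockouts was -3.29. It was -3.92 (adjusted p = 0.00168) without Stag1-/- replicate 3, which held 3 of the 5 counts, and -2.58 (adjusted p = 0.00186) without Stag2-/- replicate 1. Without Stag1-/- replicate 3 the fitted value against WT siGLO also moved, from -6.11 to -6.74 (adjusted p = 7.28e-06). WT siStag1 stood at -0.14 (adjusted p = 0.999), with libraries overlapping the controls, and Stag1-/- cells were 67.7-fold lower than WT siStag1 (interval 28.7 to 209.8, adjusted p = 6.79e-07). That fitted value moved from -5.97 to -6.60 without Stag1-/- replicate 3 (adjusted p = 9.3e-06).

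Markers of the primitive endoderm moved with Klb. The summed level of 6 markers (Gata6, Gata4, Sox17, Sox7, Pdgfra and Dab2) was 3950 to 4362 normalized counts in WT siGLO, 3872 to 4358 in WT siStag1, 329 to 531 in Stag1-/-, 729.6 to 1166 in Stag2-/- and 863 to 1133 in Stag2-/- siStag1. All 6 fell in each of the 3 knockout conditions, where 9.93%, 14.4% and 21.3% of all genes fell in Stag1-/-, Stag2-/- and Stag2-/- siStag1. None of the 6 was at or under 3 counts in any condition, and their part in the Klb result was not tested. Of the 7 tested genes starting within 200 kb of Klb (chromosome 5, 65348411 to 65386957, plus strand), Smim14 fell in Stag1-/- (log2 fold change -0.91 ± 0.20, adjusted p = 0.00578) and Ube2k rose in Stag2-/- (0.45 ± 0.08, adjusted p = 0.0013). In Stag2-/- siStag1 Ube2k rose and Smim14, Lias and Rfc1 fell. The shares of all genes called were 20% in Stag1-/-, 28.3% in Stag2-/- and 43.9% in Stag2-/- siStag1.

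**Figure D4:**
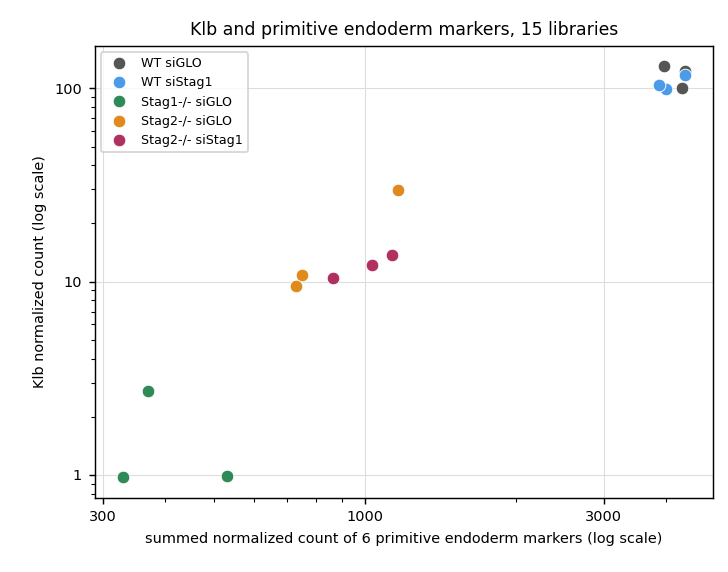
Normalized count of Klb against the summed normalized count of 6 primitive endoderm markers in the 15 libraries (both log scales), coloured by condition. Stag1-/- libraries lie lowest on both axes (329 to 531 on the marker sum), the Stag2-/- conditions between, and the 6 wild-type libraries highest.

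The 2 knockouts and the acute knockdown were then set against each other directly. Between Stag1-/- and Stag2-/- cells 5 of the 10 members were called, against 25.7% of all genes. Fgf4 (log2 0.44 ± 0.12, adjusted p = 0.0186), Fgfr2 (1.22 ± 0.17, adjusted p = 0.000163) and Fgfr4 were higher in Stag1-/-, and Fgf8 and Klb were lower. Fgf3, Fgf15, Fgf17, Fgfr1 and Fgfr3 were not called, with values between -0.21 and 0.13. Stag1-/- against WT siStag1 called 7 members, against 16% of all genes. Fgf15 (1.02, adjusted p = 0.00103), Fgfr2 and Fgf17 were higher in the clone, and Fgf3 (-1.14, adjusted p = 0.0102), Fgfr3 (-1.30, adjusted p = 0.00251), Fgfr4 (-0.81, adjusted p = 0.0245) and Klb were lower. The Fgf17 value, 0.43 (adjusted p = 0.0945), lost its call on leaving out each of the libraries other than Stag1-/- replicate 2, and Fgfr4 lost its call without Stag1-/- replicate 1 (adjusted p = 0.109). Fgf4 did not separate the clone from the knockdown (-0.07, adjusted p = 0.755).

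Adding siStag1 to Stag2-/- cells called 3 members, Fgf4, Fgf17 and Fgfr2, against 6.37% of all genes. The other 7 members were between -0.82 and 0.49 and missed the threshold, the lowest adjusted p among them being 0.339 for Fgf3. The lowest value, for Fgf8, ranged from -1.35 to -0.15 with a library left out. Without Stag2-/- siStag1 replicate 1, Fgfr1 passed at 0.35 (adjusted p = 0.0935). The Stag2-/- clone against wild-type cells, both given siStag1, called 9 members, against 37.5% of all genes. Stag1 itself was also higher in the clone there (log2 0.65, adjusted p = 0.00227). In that comparison Fgf8 (3.59), Fgf15 (1.34) and Fgfr2 (1.67) were higher, and Klb (-3.13), Fgf4 (-1.61), Fgfr4 (-1.52), Fgf3 (-1.49), Fgf17 (-1.06) and Fgfr3 (-0.94) were lower in Stag2-/- siStag1 than in WT siStag1. Fgfr1 was at 0.27 (adjusted p = 0.124). Without WT siStag1 replicate 2, in which Fgf8 had no count, the Fgf8 value was 2.97 (adjusted p = 0.0293), and without replicate 3 it was 4.29 (adjusted p = 0.0149).

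Among 13 other FGF ligands only 4 had enough counts to be tested, and they are given because they use the same receptors. Fgf5, a ligand of the primed epiblast, rose from 9.74 ± 1.78 normalized counts in WT siGLO to 93.5 ± 46.6 in Stag2-/- (log2 3.25 ± 0.38, adjusted p = 3.51e-05) and to 101 ± 11.6 in Stag2-/- siStag1. In Stag1-/- it stood at 8.31 ± 1.80 (adjusted p = 0.804). Fgf18 rose in Stag1-/- (2.44 ± 0.36, adjusted p = 0.000262), Stag2-/- (1.38 ± 0.37) and Stag2-/- siStag1 (2.14 ± 0.36). Fgf10, which signals mainly through FGFR2, fell from 179 ± 8.64 normalized counts to 36.9 ± 6.07 in Stag1-/- (-2.27 ± 0.24, adjusted p = 1.37e-05) and 49.4 ± 14.3 in Stag2-/- (-1.85 ± 0.24), and it also fell in Stag2-/- siStag1 (-1.95 ± 0.24). Fgf1, which can bind all FGF receptors, fell in Stag2-/- siStag1 (-1.13 ± 0.32) and was not called in either single knockout. The receptor Fgfr2 and its ligand Fgf10 thus went in opposite directions in Stag1-/- cells. None of the 4 was called in WT siStag1 by edgeR, also at an unadjusted p under 0.05, or by DESeq2. Of 2 FGF homologous factors tested, which stay inside the cell, Fgf13 rose in Stag2-/- (0.90 ± 0.27, adjusted p = 0.0263) and in Stag2-/- siStag1.

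Of 7 tested co-receptors and extracellular modulators, 2 rose and 1 fell in Stag1-/-, and 2 rose and 2 fell in Stag2-/- and in Stag2-/- siStag1. The shares of all genes called in these comparisons were 20%, 28.3% and 43.9%. Fgfbp1, a secreted carrier that releases FGFs from the matrix, rose in all 3 (1.21 ± 0.21, 1.06 ± 0.22 and 0.97 ± 0.22). Flrt3, a membrane protein that promotes FGF signalling, fell in all 3 (-1.35 ± 0.22, -1.04 ± 0.22 and -0.49 ± 0.21). Fgfrl1, a receptor without a kinase domain, rose in Stag1-/- (0.63 ± 0.15, adjusted p = 0.00977) and in Stag2-/- siStag1 (0.54 ± 0.15). Of the 18 tested genes that carry the signal from receptor to ERK, 4 rose and none fell in Stag1-/-, 3 fell and none rose in Stag2-/-, and 2 rose and 2 fell in Stag2-/- siStag1. The largest of these changes was -0.57 ± 0.21 for the adaptor Frs3 in Stag2-/- siStag1. When replicate number entered as a block, 6 of the 18 were called in Stag1-/- and 7 in Stag2-/-, where 30.6% and 39.4% of all genes were.

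The targets and feedback regulators of ERK were read for what lies downstream of the receptors. Of 15 tested, 7 rose and none fell in Stag1-/-, 7 rose and 1 fell in Stag2-/-, and 8 rose and 4 fell in Stag2-/- siStag1. Over all genes, 10.1% rose and 9.93% fell in Stag1-/-, 13.9% and 14.4% in Stag2-/-, and 22.6% and 21.3% in Stag2-/- siStag1. With replicate number as a block, 10 were called in Stag1-/- and 12 in Stag2-/-, against 30.6% and 39.4% of all genes. The median log2 fold change of the 15 was 0.36, 0.27 and 0.46, against medians over all genes of -0.01 to 0.01. Spred3, an inhibitor of RAS to ERK signalling, rose in all 3 (0.96 ± 0.25, 1.71 ± 0.24 and 2.18 ± 0.24), and Dusp6, a phosphatase of ERK, rose from 1016 ± 169 normalized counts to 1599.8 ± 56.6, 1359.6 ± 143 and 1846 ± 57.1. Il17rd, an inhibitor of FGF receptors, rose by 0.56 ± 0.18 in Stag1-/-, 1.10 ± 0.18 in Stag2-/- and 1.17 ± 0.18 in Stag2-/- siStag1. Etv1, a transcription factor of the ETS family, rose by 1.04 ± 0.16 in Stag2-/- and 1.70 ± 0.16 in Stag2-/- siStag1. In the opposite direction, Dusp5 (-1.07 ± 0.23), Etv4 (-1.04 ± 0.33), Spry4 (-0.99 ± 0.20) and Dusp4 (-0.47 ± 0.14) fell in Stag2-/- siStag1. Dusp4 also fell in Stag2-/- (-0.90 ± 0.15), and Dusp5 rose in Stag1-/- (0.68 ± 0.22). In WT siStag1 edgeR called none (median 0.17), 4 passed an unadjusted p under 0.05 (6.36% of all genes did), and DESeq2 called 1 (133 of 14259 genes in all). With a block for replicate number 3 were called, where 1.63% of all genes were.

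**Figure D5:**
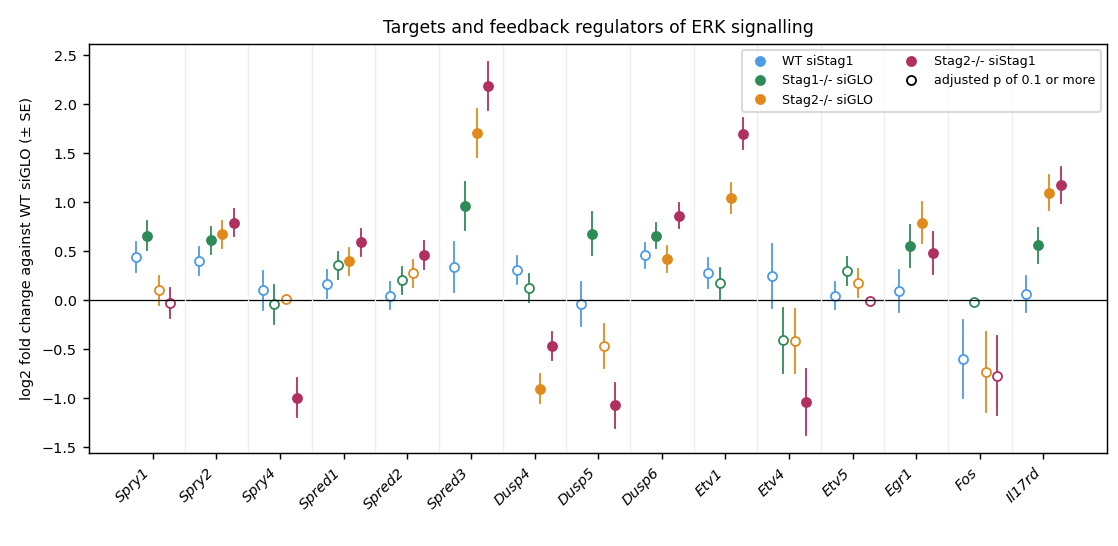
Log2 fold change against WT siGLO (± SE) of the 15 tested targets and feedback regulators of ERK in 4 conditions, with open points for an adjusted p of 0.1 or more. Spred3, Dusp6, Etv1 and Il17rd lie above 0 and Dusp5, Etv4, Spry4 and Dusp4 below 0 in Stag2-/- siStag1.

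Markers of the formative and primed epiblast were also read. Of 6 tested, 3 rose in Stag1-/-, and all 6 rose in Stag2-/- and in Stag2-/- siStag1, with none falling. The shares of all genes that rose were 10.1%, 13.9% and 22.6%. In WT siStag1 edgeR called none of the 6 (0.248% of all genes), and DESeq2 called 1 (133 of 14259 genes). The sum of 6 such markers, Fgf5 among them, was 5919 to 7817 normalized counts in WT siGLO, 8150 to 10425 in WT siStag1, 10623 to 13844 in Stag1-/-, 16508 to 19795 in Stag2-/- and 20914 to 27284 in Stag2-/- siStag1. The sum of the 8 pluripotency markers was 57988 to 64299 in WT siGLO, 50254 to 51608 in WT siStag1, 45109 to 52898 in Stag1-/-, 46346 to 53049 in Stag2-/- and 28472 to 31920 in Stag2-/- siStag1, the condition in which Fgf4 was lowest. No library outside WT siGLO reached the lowest control on this sum. The sum joins markers that went in opposite directions in Stag2-/-, where 1 of 8 (Klf2) rose and 4 fell. In Stag1-/- 2 fell, and in Stag2-/- siStag1 all 8 fell. The shares of all genes that fell were 14.4% in Stag2-/-, 9.93% in Stag1-/- and 21.3% in Stag2-/- siStag1. Only Tbx3 was called in WT siStag1, where it fell (0.248% of all genes were called). The sum of trophoblast markers was higher in Stag1-/- (553 to 775, against 147 to 198 in WT siGLO). Of 5 tested, 3 rose there (10.1% of all genes). The sum of neural progenitor markers was higher in Stag2-/- and Stag2-/- siStag1 (1557 to 4214, against 1106 to 1374). Of 6 tested, 4 and 5 rose (13.9% and 22.6% of all genes). The sum of fibroblast markers overlapped WT siGLO in every condition. Of 4 tested, 1 (Col3a1) rose in Stag2-/- and in Stag2-/- siStag1. The part of these cell states in the FGF results was not tested.

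The genes whose pattern over the 15 libraries was most like that of a member were found by Pearson's r of log2 normalized counts among 11520 genes, as a description, since all points share libraries and conditions. For Klb they were Srgn (0.986), Dab2 (0.984) and Sox7 (0.982), of which Dab2 and Sox7 are in the primitive endoderm list. For Fgf4 they were Inhbb (0.983), Cdyl2 (0.973) and Afg3l2 (0.972), for Fgfr3 Gas6 (0.975), Gdpd5 (0.967) and Npl (0.962), and for Fgfr4 Stag3 (0.964), Vill (0.957) and Etnk1 (0.954). For Fgf3 they were Cdc16 (0.949), Stat6 (0.944) and Ell2 (0.943). The order depended on the measure, and by Spearman's rank correlation with Fgf3, Ell2 was at rank 1, Cdc16 at rank 30 and Stat6 at rank 63. The closest genes to Fgf17 (Cnn3, 0.926), Fgfr1 (Gnas, 0.947), Fgfr2 (Med16, 0.930) and Fgf8 (Zfp946, 0.935) were less alike than those of Klb and Fgf4.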

How the data were processed

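PolyA RNA of 15 libraries was read as 150 bp paired-end reads and aligned by the authors with STAR to mm10, and the deposited files hold raw counts per gene for 23412 genes. The counting tool, annotation and strand setting are not given in the sources used here. The 4 summary lines of each file (379446 to 499487 ambiguous, 856645 to 1070944 multimapping, 2132981 to 2989457 outside genes and 875042 to 1116743 unmapped reads) were left out of library sizes and tests. At these depths 3 counts correspond to 0.157 to 0.200 CPM.

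Counts were tested with edgeR 4.0.16 in R 4.3.3, as the quasi-likelihood test over all 15 libraries with 1 coefficient per condition, TMM scaling and filterByExpr (minimum count 10, minimum total 15), leaving 14508 genes. Tests were 2-sided and adjusted over all of these genes by the Benjamini-Hochberg method, with a threshold of 0.1. For Klb in Stag1-/- the ratio of summed counts with an exact 95% interval is given in place of the fitted fold change. The alternatives were the replicate number as a block, DESeq2 1.42.0, other scalings and filters, only the libraries compared, and each library left out. The test was checked on simulated counts.

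The members and gene lists were chosen with earlier results of these data known. Beyond the members, the text names up to 3 called genes with the largest change per list and comparison with WT siGLO, called neighbours starting within 200 kb, the 3 genes most alike over the libraries, and genes singled out after their values were seen. Positions and promoter windows are from RefSeq GRCm38.p6, exon lengths from GENCODE M21 by symbol (21777 genes by current and 1265 by older symbol, 370 not placed). All columns were used.

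Replicate numbers are in the labels, which do not say what they share. Of 30 same-numbered pairs of libraries from different conditions, 27 had deviations correlated above 0.1 (mean r = 0.309), against 8 of 60 differently numbered pairs. Every pair passed in the comparisons of Stag1-/-, Stag2-/- and WT siStag1 with WT siGLO, of Stag2-/- siStag1 with Stag2-/-, and of Stag1-/- with Stag2-/- and WT siStag1. The genes most like Fgf15 in pattern are not reported here.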

Additional observations from a re-analysis of the deposited data

Results flagged for a closer look

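For Fgf17, the change with siStag1 differed between Stag2-/- and wild-type cells by a log2 of -1.24 ± 0.23 in edgeR's interaction test (adjusted p = 0.0462). For Fgfr2, the difference of the same effects was 1.29 ± 0.25 (adjusted p = 0.0567). In both genes all 3 libraries of Stag2-/- siStag1 lay outside the range of Stag2-/-, while WT siStag1 and WT siGLO overlapped. The Fgf17 call was lost on leaving out any WT siStag1 library, WT siGLO replicate 2 or 3, or Stag2-/- siStag1 replicate 3 (adjusted p up to 0.169) and the Fgfr2 call on leaving out any of the 6 wild-type libraries or Stag2-/- replicate 2 (adjusted p up to 0.213). A fit to the 4 conditions alone gave values of -1.24 for Fgf17 and 1.29 for Fgfr2, with adjusted p-values of 0.117 and 0.197.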

How the results depend on the processing

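Of 90 values (10 genes in 9 comparisons), 50 passed the threshold, and none of the 50 changed direction under any alternative or with any library left out. A call was lost for 4 of them under an alternative and for 6 with a library left out. With at least 10 counts in every library, Fgf8 and Klb could not be tested and 3 rather than 5 members differed between Stag1-/- and Stag2-/-. With only the libraries compared, Klb could not be tested there and 4 members differed. For the interaction of siStag1 with genotype the number called went from 2 to 0 with only the libraries compared, and to between 0 and 3 with libraries left out. A block for the replicate number raised the calls of members from 7 to 9 in Stag2-/- against WT siGLO, where calls over all genes went from 4110 to 5723 of 14508. The same block in comparisons where not every pair deviated together gave 10 rather than 9 members in Stag2-/- siStag1 against WT siStag1, with Fgfr1 added (adjusted p = 0.0311) and calls over all genes going from 5441 to 6893, and 3 rather than 2 in the interaction, with Fgf4 added (-0.75, adjusted p = 0.0204). The Fgf4 interaction also passed with DESeq2 (-0.77, adjusted p = 0.0105) and with no expression filter (-0.78, adjusted p = 0.059), against an adjusted p of 0.151 as reported and 0.128 to 0.229 in the remaining settings over all replicates. The block changed no other call of a member. Of the genes from receptor to ERK, 8 of 18 rather than 4 were called with the block in Stag2-/- siStag1 against WT siGLO, where the calls over all genes went from 6364 to 7792 of 14508. In other comparisons the block moved the calls over all genes from 2907 to 4443 in Stag1-/-, from 36 to 236 in WT siStag1, from 924 to 2049 for siStag1 within Stag2-/- cells, from 2326 to 3850 for Stag1-/- against WT siStag1 and from 23 to 138 in the interaction.

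Values that changed sign were all far from the threshold. The Fgf3 interaction, 0.0026, was -0.0041 with DESeq2, -0.00076 with DESeq2 size factors, -0.022 with no expression filter and -0.0059 with at least 10 counts in every library. With a library left out, the lowest and highest values were -0.40 and 0.72 for Fgf8 in Stag1-/- and -0.030 and 0.32 for Fgf17 in Stag2-/-. For WT siStag1 they were -0.60 and 0.73 for Fgf8, -0.20 and 0.17 for Fgf15, -0.21 and 0.0035 for Fgf17, and -0.10 and 0.090 for Fgfr3. They were -0.73 and 0.26 for Klb with siStag1 in Stag2-/- cells, -0.011 and 0.34 for Fgf17 and -0.18 and 0.31 for Fgfr3 between the knockouts, and -0.13 and 0.0049 for Fgf4 and -0.51 and 0.88 for Fgf8 in Stag1-/- against WT siStag1. In the interaction they were -0.20 and 0.16 for Fgf3, -0.15 and 0.11 for Fgfr1, -0.024 and 0.34 for Fgfr4, and -0.60 and 0.39 for Klb. Counting limits Fgf8 and Klb most, with 0 to 30 counts of Fgf8 in a library outside Stag2-/- cells and 1 to 3 of Klb in Stag1-/-.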
